A study of Lens culinaris with 20 samples.

Results

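The features described here are 18 to 20 nt sequences that the authors listed under lentil names, that is with the prefix lcum and no name from another species, in a table of mature miRNAs from lentil (Lens culinaris), a grain legume. Entries with the same mature sequence were counted once, which left 1464 features, of which 1070 carried a lentil name. Of the lentil-named features, 276 were 18 to 20 nt long, and the 58 members reported were chosen by their raw counts, as those above 0 in at least 3 of the 20 libraries. They were split by whether the mature sequence lay unchanged in the precursor hairpin listed beside it, which held for 13 members (called exact) and not for 45. Roots, stem, shoots, young pods, flower buds and mature leaves each had 3 small RNA libraries and flowers had 2, made from total RNA of pooled samples per the labels' protocols. The labels name no cultivar, age or treatment. They leave it unsaid whether a tissue's libraries stem from different plants, so the p-values cover the variation among these libraries alone, and it may be technical. The tissue labels could not be checked against marker genes, since the table holds miRNAs only. In whole-tissue RNA, fewer cells of a type and less RNA per cell cannot be told apart.

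Plant miRNAs are cut from hairpin transcripts by Dicer-like enzymes, which leaves a mature strand on one arm and a star strand on the opposite arm. The mature strand is loaded into an Argonaute protein and pairs along nearly its whole length with its target RNA, and pairing of the bases near its 5′ end, the seed, weighs strongly. In Arabidopsis the Argonaute that binds most miRNAs prefers a 5′ U, and the usual miRNA is slightly longer than the features described here.

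The sequences below are the members that carry the results, printed 5′ to 3′ with T for U as the authors' table gives them, with the seed (bases 2 to 8) in capitals. The first set holds 4 features that were read in roots and in no other tissue.
lcum-miR-4489_3445-3p: aTCATGGAatgttgcaatt
lcum-miR-14113_1065-5p: cCTTTGTTctttggatttgt
lcum-miR-48762_221-3p: tGGCAGCTagagcataacc
lcum-miR-53568_191-5p: gAAAGATGgtgaactatgct
The second set is shown because its members overlap one another and were again read in roots alone. The first 3 share a run of 18 bases, and the last 2 share 19.
lcum-miR-44220_257-3p: cCTTTGTTtcccgtgattt
lcum-miR-85582_88-3p: cTTTGTTTcccgtgattt
lcum-miR-131357_42-3p: cCTTTGTTtcccgtgatttc
lcum-miR-63821_144-5p: gTAGGTCActgccgggatt
lcum-miR-52872_195-5p: aGTAGGTCactgccgggatt
The third set holds abundant members that were read in several tissues.
lcum-miR-9839_1544-3p: aGACCCGAgtatctgatgca
lcum-miR-33005_392-3p: aTTCCTTTtgttgcacctct
lcum-miR-70491_122-3p: aGTCCTTGtgttgcacctta
lcum-miR-24927_565-5p: cTTTTGGGtaaagcccta
lcum-miR-24886_566-3p: aAAGATCCcacatacattga
lcum-miR-19071_768-3p: tCCGCTTGggagattcgt
lcum-miR-50241_211-3p: cCTAGATAcattgatacac
lcum-miR-44300_256-3p: tCTCATGAatagacttgaac
lcum-miR-24395_580-5p: cATCGGTGatgagctgttta
The seed CTTTGTT was common to 3 members, lcum-miR-14113_1065-5p, lcum-miR-44220_257-3p and lcum-miR-131357_42-3p, and every other seed among the 58 occurred in 1 member.

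All 45 members that were not exact differed from their listed precursor by 1 substitution. The next lines show 3 of them, each with the feature first and the matching stretch of its precursor after it, and the differing base in capitals.
lcum-miR-4489_3445-3p: atcatggaatGttgcaatt
lcum-miR-4489_3445-3p in its precursor: atcatggaatTttgcaatt
lcum-miR-14113_1065-5p: cctttgttctttggAtttgt
lcum-miR-14113_1065-5p in its precursor: cctttgttctttggCtttgt
lcum-miR-33005_392-3p: aTtccttttgttgcacctct
lcum-miR-33005_392-3p in its precursor: aGtccttttgttgcacctct
Written as the precursor's base, the position counted from 1 at the feature's 5′ end and the feature's base, these are T11G for lcum-miR-4489_3445-3p, C15A for lcum-miR-14113_1065-5p and G2T for lcum-miR-33005_392-3p. Among the 45 members the substitution lay at base 1 in 1, in bases 2 to 8 in 10, in bases 9 to 12 in 13 and after base 12 in 21. It fell on the last base in 2 of them, and on the last base or the one before in 4. Few thus lay at the 3′ end itself, though most lay after base 8. Transitions made up 11 of the substitutions and transversions 34. Of the 20 members that were both not exact and confined to root libraries, 5 had the substitution in bases 2 to 8. Whether a substitution stems from the RNA, from sequencing or from the choice of precursor was not tested. Nor was it tested whether the sequences also lie in ribosomal or transfer RNA, because the analysis used no genome and no such reference. This limit bears in particular on lcum-miR-33005_392-3p, lcum-miR-70491_122-3p, lcum-miR-68259_128-5p and lcum-miR-53568_191-5p, whose sequence or precursor resembles ribosomal RNA by eye, with no alignment made. By eye the precursors of the exact lcum-miR-187555_23-3p and of lcum-miR-169382_27-3p resemble transfer RNA. The members named may not be all to which the limit applies.

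**Figure D1:**
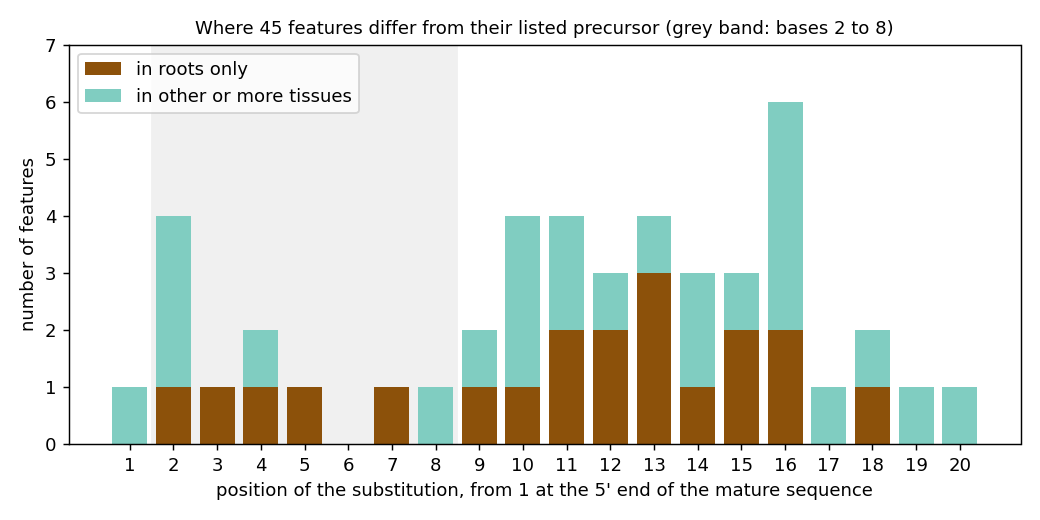
Number of members by the position of their substitution, for 45 members that differ from their listed precursor by 1 base; brown bars count members read in roots alone and green bars the others, and the grey band marks bases 2 to 8. The band holds 10 substitutions and positions beyond base 12 hold 21.

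How often a lentil-named feature lay exactly in its precursor differed with its length. Among features above 0 in at least 3 libraries, 3 of 13 with 18 nt were exact, 0 of 24 with 19 nt and 10 of 21 with 20 nt, together 22.4% of the 58. At 21 nt 52 of 61 were exact (85.2%), at 22 nt 32 of 43 (74.4%) and at 24 nt 56 of 75 (74.7%). Of 62 features of 18 to 20 nt that had a known miRNA's name and a listed precursor, 40 were exact (64.5%). These shares were given no test, since library support entered the choice of members. Among lentil-named features in only 1 or 2 libraries, which the choice left out, 6 of 18 with 18 nt, 23 of 119 with 19 nt, 24 of 81 with 20 nt and 67 of 132 with 21 nt were exact. The 0 of 24 at 19 nt therefore did not extend to the less widely read features of that length.

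**Figure D2:**
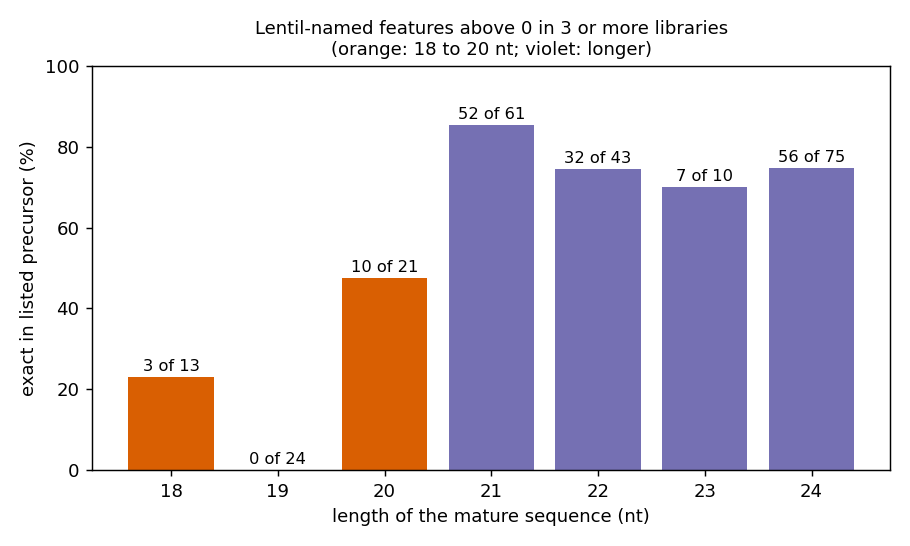
Share of lentil-named features, in percent, whose sequence lies unchanged in the listed precursor, by length in nt and among features above 0 in at least 3 libraries; the counts stand above the bars. The bars at 18 to 20 nt (orange) reach at most 47.6%, and those at 21 to 24 nt (violet) at least 70.0%.

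Other features of the sequences are given as descriptions. The first base was C in 21 members (36.2%), T in 14 (24.1%), A in 13 and G in 10. In the 104 lentil-named features of 21 and 22 nt the first base was T in 36.5% and C in 16.3%, and in the 85 of 23 nt or more it was A in 64.7%. Another stretch set in capitals in the authors' precursor was read as the opposite arm, with no check of its place. It was present for 2 of the 58 members (3.45%), lcum-miR-135176_40-5p and lcum-miR-143975_36-3p, against 28.8% of the lentil-named features of 21 and 22 nt. Folded with RNAfold, the precursors had a median minimum free energy of -26.7 kcal/mol per 100 nt, against -23.0 for features of 18 to 20 nt with a known miRNA's name, -37.0 for the lentil-named features of 21 and 22 nt and -38.9 for those of 23 nt or more. A more negative value means a more stable predicted hairpin. Exact members (-27.1) and those with a substitution (-26.7) had nearly the same median. The mature stretch was paired over a median of 75.0% of its bases in members, 55.6% in the known-named features of 18 to 20 nt and 83.8% in the lentil-named features of 21 and 22 nt. The precursors of the most abundant member of each class are printed with the mature stretch in capitals, to show how these hairpins differ in length.
Precursor of lcum-miR-4489_3445-3p: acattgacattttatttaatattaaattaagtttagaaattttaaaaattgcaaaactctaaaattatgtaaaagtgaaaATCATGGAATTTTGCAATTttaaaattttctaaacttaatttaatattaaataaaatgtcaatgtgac
Precursor of lcum-miR-9839_1544-3p: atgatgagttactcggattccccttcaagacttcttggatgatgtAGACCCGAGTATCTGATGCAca
The precursor of lcum-miR-4489_3445-3p has 148 nt and a folding energy of -41.8 kcal/mol per 100 nt, and that of lcum-miR-9839_1544-3p has 67 nt and -23.6.

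The root libraries were among the shallowest, with 72853 to 150453 reads in the table, against 74113 to 997119 in the other 17 libraries. A listed value of 0 stands for fewer than about 5 reads. That limit lay between 26.8 and 40.4 CPM in roots and between 4.01 CPM (flowers 2) and 60.8 CPM (mature leaves 3) elsewhere. CPM here means counts scaled to the library size after TMM normalization, whose factors ran from 0.509 to 1.70 with the highest in roots, so a CPM in roots is lower than the plain share of reads. Of the 1160 member values, 64.5% were listed at 0. The mean over the 7 tissues ran from 3.01 to 1077 CPM with a median of 29.1. For 4 members the authors divided the reads between 2 entries of the same sequence. The CPM of lcum-miR-24886_566-3p, lcum-miR-44220_257-3p, lcum-miR-52872_195-5p and lcum-miR-55738_179-5p is that of the entry kept. Fractional reads also stood in lcum-miR-131357_42-3p (4.5 in roots 2) and lcum-miR-143975_36-3p (2.5 in shoots 1), which had 1 entry each. The reason is not given, and their CPM may be partial. Values above 0 but under 5 reads occurred in 3 members, these and lcum-miR-55738_179-5p.

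The 58 members together held more of the root libraries than of any other. They made up 3.87%, 2.42% and 3.35% of the reads in roots 1, 2 and 3 (3.22% ± 0.735, SD, n = 3), against 0.0508% to 0.556% in the other 17 libraries. The lowest root library stood above the highest of the others, flowers 2. The members with a substitution took 1.90% to 2.90% of root reads and 0.0187% to 0.400% elsewhere, and the exact ones took 0.519% to 0.974% of root reads and 0.0224% to 0.175% elsewhere. Of all reads under lentil names, the members held 49.3% to 66.5% in roots and 2.56% to 28.2% in the other libraries. In roots 33 to 39 of the 58 were above 0, against 6 (flower buds 1) to 33 (flowers 2) in the other libraries. In each root library 21 of those above 0 were members read in roots alone, which are at 0 elsewhere by definition. The higher count in roots thus includes these members, and the choice of members bears on it. No test was made on these sums, because the members were chosen with such values known.

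**Figure D3:**
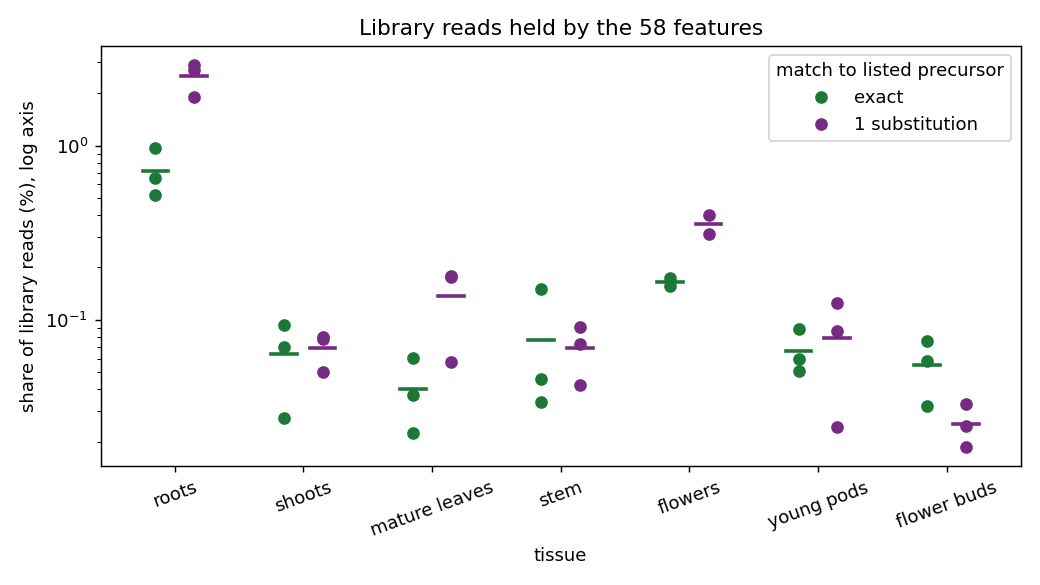
Share of each library's reads, in percent on a log axis, held by the exact members (green) and by those with 1 substitution (violet), by tissue; each point is a library and each bar the mean of a tissue. Root libraries lie highest for both classes, at 0.519% to 0.974% for exact members and 1.90% to 2.90% for the others.

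Of the 58 members, 21 (36.2%) were above 0 in all 3 root libraries and at 0 in the other 17. Over all features this pattern held for 22 of 1464 (1.5%), or 3.96% of the 555 that were above 0 in at least 3 libraries, and the 1 feature outside the members was mtr-MIR5206b-p5. No lentil-named feature of 21 nt or more showed it. No member was confined in this way to another tissue, and over all features 5 were confined to stem (0.342%) and 7 to flowers (0.478%). Of these 21 members, 20 had a substitution and 1, lcum-miR-53568_191-5p, was exact. By length, 5 of 13 members with 18 nt, 11 of 24 with 19 nt and 5 of 21 with 20 nt were of this kind. The choice of members bears on these counts: a feature read in root libraries alone entered only if it was above 0 in every one, and a feature of flowers alone could not enter, as flowers had 2 libraries. Across the threshold, 23 lentil-named features of this length were above 0 in exactly 3 libraries, with a median total of 125 reads, and 21 of them were those of roots. Just outside, 30 were above 0 in 2 libraries, with a median total of 23.5 reads, and in 20 of them both were root libraries. A further 188 were above 0 in 1 library, which was a root library for 103 (54.8%), against 42.9% of 21 features of the same length with a known miRNA's name, 23.7% of 169 lentil-named features of 21 and 22 nt and 16.6% of 296 of 23 nt or more.

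lcum-miR-4489_3445-3p, a 19 nt sequence on the 3′ arm, was the most abundant member. It stood at 8579.9, 4372 and 9672 CPM in roots 1, 2 and 3, and at 0 in the other 17 libraries. All root libraries were high and no other library reached the limit of about 5 reads. Its root mean of 7541 ± 2799 CPM (SD, n = 3) was at least 347-fold higher than a level of 5 reads in every library of the other 6 tissues (adjusted p = 1.76e-07, edgeR's quasi-likelihood test). By itself it took 0.743% to 1.25% of the root reads. The next, lcum-miR-14113_1065-5p, had 3437, 2691 and 3490.4 CPM in roots 1, 2 and 3, at least 147-fold over that level (adjusted p = 2.15e-07, edgeR). The exact lcum-miR-53568_191-5p had 1171, 630.3 and 869 CPM in the same libraries, at least 40.9-fold over it (adjusted p = 3.88e-06, edgeR). lcum-miR-48762_221-3p had 574, 267 and 799 CPM, at least 25.1-fold over it (adjusted p = 1.35e-05, edgeR). In all 4 the lowest of the root values belonged to roots 2, the shallowest library of the series. The 4 were read in roots alone and passed the filter through roots, so their p-values describe them and support nothing further. Each bound is the root mean over the mean 5-read level of the other 6 tissues, a plain ratio with no error attached. The adjusted p beside it comes from the fitted contrast.

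Over the 21 members confined to roots, the root mean ran from 46.7 to 7541 CPM with a median of 269. The bound on the fold ran from 2.15 to 347 with a median of 12.4. Over the 58 members, Spearman correlations between pairs of root libraries were 0.911 to 0.932, a value that the choice of members bears on, since 21 were above 0 in all 3 root libraries and nowhere else. Over all features the root libraries correlated at 0.545 to 0.624, against 0.613 to 0.863 between libraries of the same tissue elsewhere. CPM was highest in roots 3 for 16 of the 21, in roots 1 for 4 and in roots 2 for 1. edgeR called all 21 higher in roots, with adjusted p from 1.76e-07 to 6.34e-04. The 21 were singled out for being read in roots alone, so these calls and p-values describe them and support nothing further. DESeq2 called 7 of the 21 higher in roots and gave no adjusted p for 3. For a feature with 17 values of 0 the fitted contrast has no stable size, so the levels and bounds are the values to read.

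Of the overlapping sequences, the first 3 kept the same order in each root library. lcum-miR-44220_257-3p had 429, 331 and 515 CPM in roots 1, 2 and 3. lcum-miR-85582_88-3p, which lacks its first base, had 138, 105 and 177 CPM, and lcum-miR-131357_42-3p, with 1 base more at the 3′ end, had 53.6, 40.4 and 53.6 CPM. The substitution is T13G, T12G and T13G in the order given, which is the same base of the shared run. The 20 nt lcum-miR-52872_195-5p had 245, 186 and 397 CPM, and lcum-miR-63821_144-5p, the same sequence without the first base, had 352, 267 and 349 CPM. Their substitutions are T5G and T4G, again the same base, and their order differed between root libraries: the 19 nt form was higher in roots 1 and 2 and the 20 nt form in roots 3. The authors divided the reads of the 20 nt form evenly between 2 entries, and over both entries it would stand above the 19 nt form in all 3 root libraries. Members of such a group share most of their sequence and are not independent.

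**Figure D4:**
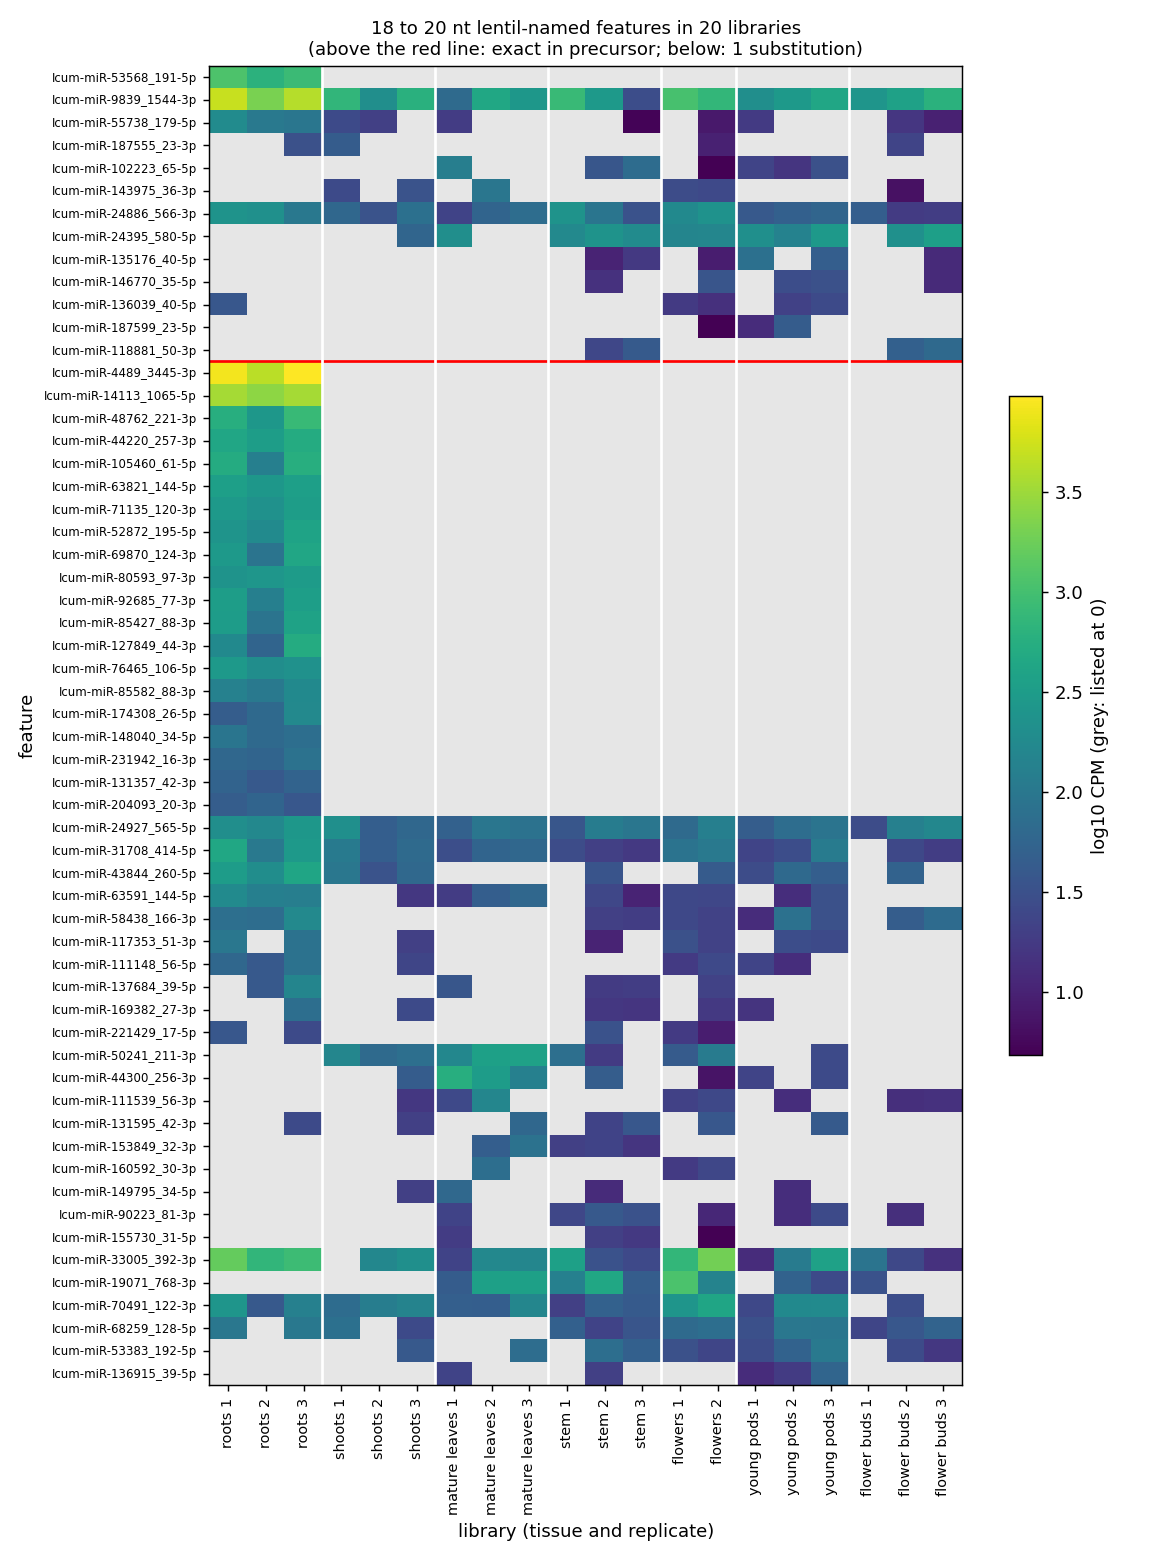
CPM of the 58 members (rows) in the 20 libraries (columns, by tissue), as log10 CPM in colour with grey for values listed at 0; the 13 exact members stand above the red line and the 45 with a substitution below it, each sorted by the tissue with the highest mean. The block of 20 rows coloured in roots alone lies directly under the line, and 3 members have a colour in all 20 libraries.

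The question the study's design poses is which miRNAs differ between organs. Of the 58 members, 43 passed the filter on low counts and were tested (6 exact and 37 with a substitution), within a fit of 323 features. Of the 15 not tested, 4 were above 0 in any root library. Most passed through the tissue where they were high, so the counts describe them and support nothing further. Levels differed over the 7 tissues for 37 of the 43 at an adjusted p under 0.05 (edgeR's F-test), against 74.3% of all features tested. The 6 that missed it were lcum-miR-24395_580-5p (adjusted p = 0.0571, edgeR), lcum-miR-117353_51-3p (0.0598), lcum-miR-68259_128-5p (0.0826), lcum-miR-53383_192-5p (0.322), lcum-miR-24927_565-5p (0.338) and lcum-miR-131595_42-3p (0.580). DESeq2 called 14 of them, and among the 21 confined to roots it called 1 and gave no adjusted p for 2.

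Against the mean of the other 6 tissues, roots had 33 of the 43 tested members called higher, against 32.2% of all features, and 1 called lower, against 19.8% (edgeR, adjusted p under 0.05 with a log2 fold change of 1 or more in size). The 33 were the 21 above and 12 that were also read elsewhere, and they comprised 4 of 6 exact members and 29 of 37 with a substitution. For comparison, 9 of 44 tested lentil-named features of 21 and 22 nt, 2 of 12 of 23 nt or more, and 15 of 38 features of 18 to 20 nt with a known miRNA's name were called higher in roots. Other scalings moved the median log2 difference of all features in roots, by -0.85 with the authors' factors and by 0.63 with plain library size. The number of members called in roots stayed within 1.5 times of 34 under both, while DESeq2 called 20 (17 higher and 3 lower).

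lcum-miR-9839_1544-3p, an exact 20 nt sequence, had the highest mean level over the 6 tissues other than roots (465 CPM, followed by 318 for lcum-miR-33005_392-3p) and was read in all 20 libraries. It had 5051, 2109 and 4149.9 CPM in roots 1, 2 and 3. It had 723, 208 and 600.4 CPM in shoots, 66.6, 443 and 268 in mature leaves, 846, 289 and 29.2 in stem, 1057 and 750.0 in flowers, 206, 289 and 436 in young pods, and 256, 373 and 624 in flower buds. Every root library stood above every other library. Flowers stood above shoots, mature leaves, young pods and flower buds and overlapped stem, and the remaining tissues overlapped one another. Its log2 fold change in roots was 3.15 ± 0.50 (SE; adjusted p = 5.40e-05, edgeR). Among the members with a value above 0 in every tissue, roots were also higher for lcum-miR-31708_414-5p, by a log2 fold change of 2.69 ± 0.55 (SE; adjusted p = 4.65e-04, edgeR), and for the exact lcum-miR-55738_179-5p, by 4.30 ± 1.0 (SE; adjusted p = 0.00132, edgeR). lcum-miR-31708_414-5p had 444, 105 and 289.5 CPM in roots 1, 2 and 3 and 0 to 116 CPM elsewhere, so roots 2 overlapped the others. lcum-miR-55738_179-5p had 191, 105 and 96.5 CPM in roots and at most 26.5 CPM elsewhere, with no overlap.

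Only 3 members were read in all 20 libraries, and the coefficient of variation of their tissue means was 0.461 for lcum-miR-24927_565-5p, 0.717 for lcum-miR-24886_566-3p and 1.35 for lcum-miR-9839_1544-3p. lcum-miR-24927_565-5p averaged 217 ± 52.6 CPM in roots, 106 ± 91.5 in shoots, 77.0 ± 22.3 in mature leaves, 82.5 ± 41.0 in stem, 69.3 ± 22.05 in young pods and 109 ± 71.4 in flower buds (SD, n = 3 each), and 98.2 ± 43.9 in flowers (SD, n = 2). Outside roots its tissues did not separate beyond that spread. Roots overlapped shoots, as shoots 1 (212 CPM) stood above roots 1 (207) and roots 2 (170). The contrast of roots with the other 6 passed at a log2 fold change of 1.28 ± 0.51 (SE; adjusted p = 0.0395, edgeR) and missed the threshold in 11 other settings. Among them were leaving out any of the 3 root libraries (adjusted p of 0.109, 0.0791 and 0.112 without roots 1, 2 and 3), shoots 3 (0.0605), flowers 1 (0.195) or flowers 2 (0.0805), dropping the filter on low counts (0.823), and the authors' factors (0.495). lcum-miR-24886_566-3p had 237, 218 and 102 CPM in roots, against 180.2 and 229.6 in flowers and 237, 91.7 and 32.7 in stem, which overlapped. It was called higher in roots at a log2 fold change of 1.45 ± 0.51 (SE; adjusted p = 0.0223, edgeR). That call was lost without roots 1 (adjusted p = 0.141), roots 2 (0.131), flowers 1 (0.149) or flowers 2 (0.0726), without a filter on low counts (0.662, log2 fold change 0.86) and with the authors' factors (0.307, log2 fold change 0.71).

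Flowers had 3 members called higher, against 13.0% of all features, and 0 called lower, against 2.17%. lcum-miR-33005_392-3p had 735 and 1899.8 CPM in flowers 1 and 2, against 1599.6, 727 and 890.0 in roots and at most 373 CPM in the other 15 libraries. Flowers and roots overlapped each other, and both stood clear of the rest. Its log2 fold change was 3.08 ± 0.80 in flowers (SE; adjusted p = 0.0150, edgeR) and 2.73 ± 0.74 in roots (SE; adjusted p = 0.00442, edgeR). Leaving out flowers 2 ended the call in flowers (adjusted p = 0.123), and leaving out roots 1 ended that in roots (0.0773). lcum-miR-70491_122-3p had 254 and 418 CPM in flowers, against 253, 40.4 and 134 in roots and 20.4 to 184 in shoots, mature leaves, stem and young pods. In flower buds it had 0, 29.4 and 0 CPM, the lowest of the 7 tissues. It was called higher in flowers by a log2 fold change of 2.38 ± 0.73 (SE; adjusted p = 0.0320, edgeR), which missed the threshold without flowers 2 (0.188). In flower buds it was called lower by -3.37 ± 1.02 (SE; adjusted p = 0.0191, edgeR), and this call was lost without roots 1 (0.0688), flowers 1 (0.0562), flower buds 1 (0.0717) or flower buds 3 (0.116).

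lcum-miR-19071_768-3p, of 18 nt and with the substitution T2C, was read in flowers, stem and mature leaves and was at 0 in all root and shoot libraries. It had 1120.1 and 146 CPM in flowers, 131, 448 and 44.7 in stem, and 44.4, 358 and 365 in mature leaves. Young pods had 0, 52.1 and 26.3 CPM and flower buds 33.2, 0 and 0. The libraries of flowers, stem and leaves overlapped widely, and flowers 1 alone stood far above the others. It was called higher in flowers (mean 633 CPM, against 83.5 in the other 6 tissues, adjusted p = 0.00266), in mature leaves (256 against 146, adjusted p = 0.00653) and in stem (208 against 154, adjusted p = 0.0103, all edgeR). In such a contrast a tissue at 0 pulls the mean of the others down on the log scale, so a call can stand beside similar CPM means. Without stem 2 the call in stem was lost (adjusted p = 0.118).

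**Figure D5:**
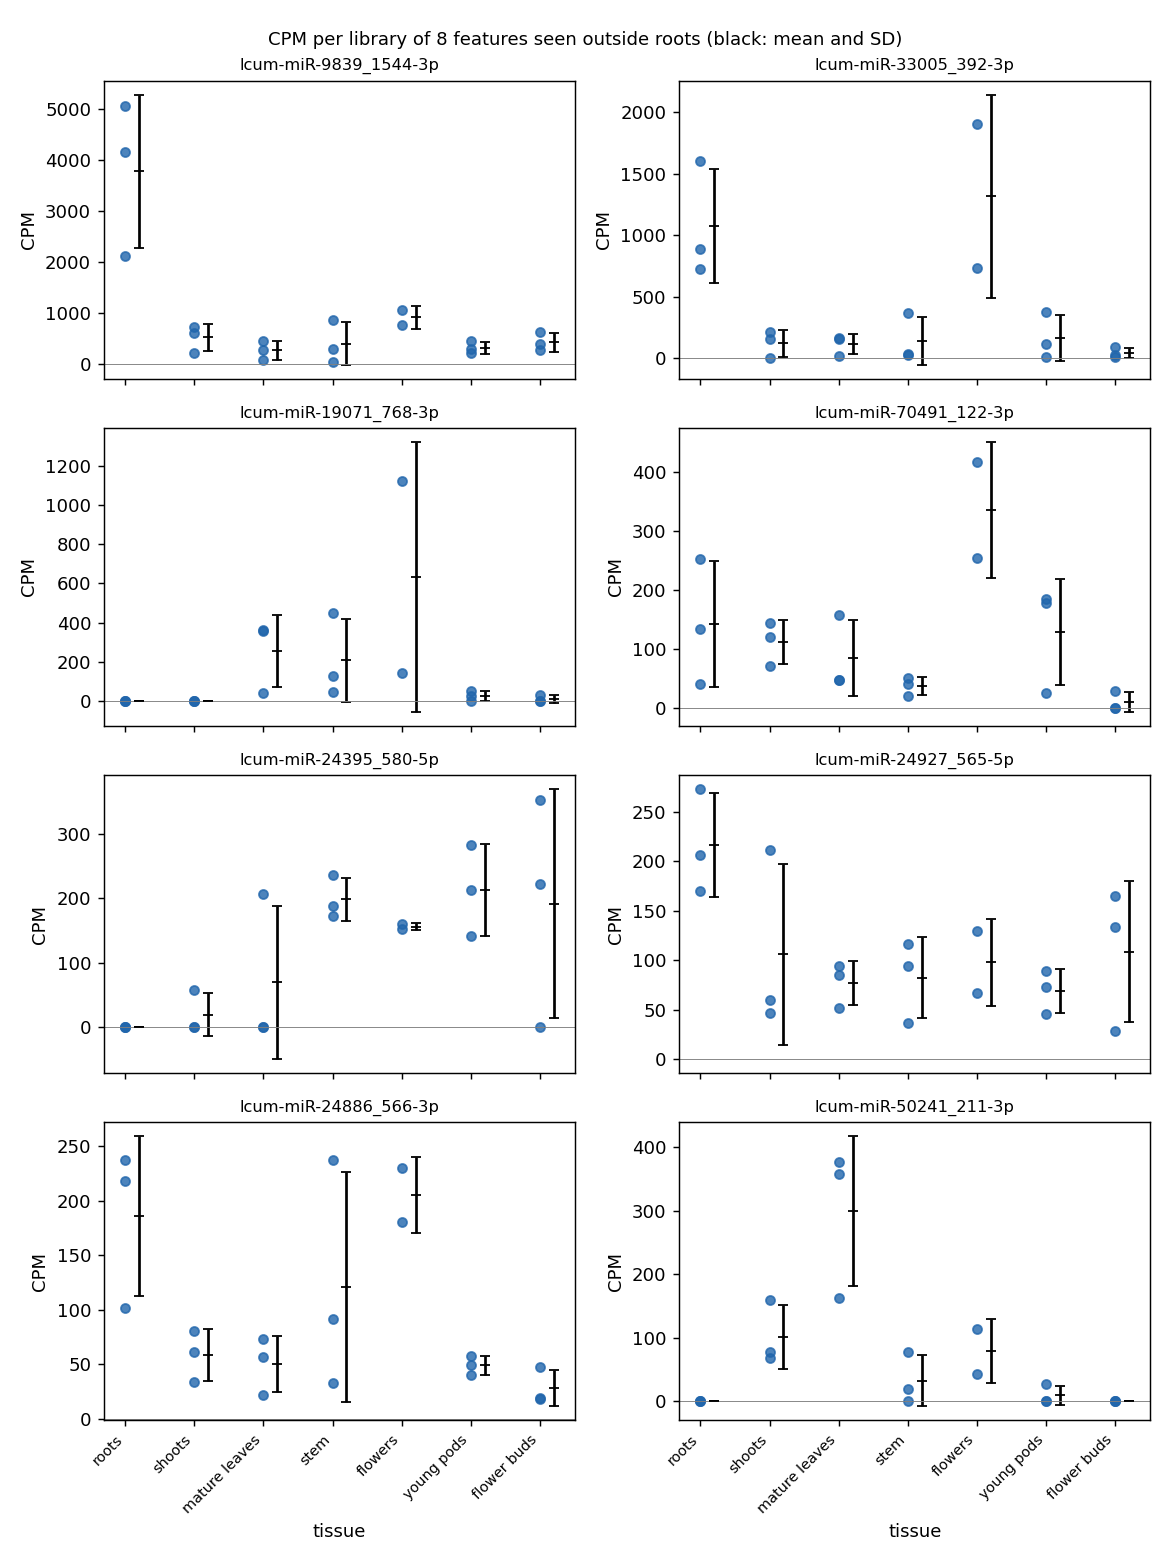
CPM per library of 8 members that were read outside roots, by tissue (blue points), with the tissue mean and SD in black beside them; the vertical axes differ between panels and start near 0. lcum-miR-9839_1544-3p is highest in the 3 root libraries, lcum-miR-33005_392-3p in flowers and roots, lcum-miR-50241_211-3p in mature leaves, and lcum-miR-24395_580-5p is at 0 in roots.

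Mature leaves had 5 members called higher, against 21.1% of all features, and 1 called lower, against 9.91%. lcum-miR-50241_211-3p had 163, 358 and 377 CPM in mature leaves, against 159, 67.0 and 77.1 in shoots and at most 114 CPM in the other 14 libraries. All leaf libraries stood above every other library, by the least for leaves 1 over shoots 1 (adjusted p = 4.77e-04, edgeR). It was also the 1 member called higher in shoots, against 11.5% of all features, with 0 called lower, against 2.79%. That call in shoots (adjusted p = 0.0303, edgeR) was lost when any of the 3 shoot libraries, any of the 3 root libraries, stem 2, flowers 1, flower buds 2 or flower buds 3 was left out (adjusted p of 0.0665 to 0.159). lcum-miR-44300_256-3p had 566, 320.1 and 134 CPM in mature leaves and 0 to 44.8 CPM elsewhere, with no overlap (adjusted p = 2.85e-04, edgeR). The others called higher in leaves were lcum-miR-19071_768-3p, lcum-miR-153849_32-3p (adjusted p = 0.00249, edgeR) and lcum-miR-102223_65-5p (adjusted p = 0.0136, edgeR), the last read in leaves 1 alone of the leaf libraries and not called without flowers 1 (0.0604). The call of lcum-miR-153849_32-3p rests on 0, 5 and 7 reads in leaves 1, 2 and 3, at or just above the limit where it was read. lcum-miR-68259_128-5p was at 0 in the 3 leaf libraries, against a mean of 53.8 CPM over the other tissues, and was called lower there (adjusted p = 0.00994, edgeR). The limit in leaves was 42.1 CPM on average, close to that mean, and without leaves 1 the call was lost (0.0639).

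In stem 3 members were called higher, against 22.6% of all features, and 0 lower, against 7.74%. They were lcum-miR-19071_768-3p, the exact lcum-miR-102223_65-5p and lcum-miR-153849_32-3p. lcum-miR-153849_32-3p had 20.4, 22.4 and 15.5 CPM in stem, against 0, 47.1 and 85.1 in mature leaves and 0 in the other 14 libraries (adjusted p = 0.00872, edgeR). lcum-miR-102223_65-5p had 0, 36.7 and 70.5 CPM in stem, against 126, 0 and 0 in mature leaves and 22.8, 15.6 and 31.5 in young pods (adjusted p = 0.0206, edgeR). The stem values of lcum-miR-153849_32-3p were near the reading limit, which was 20.4, 10.2 and 8.60 CPM in stem 1, 2 and 3. Without stem 2 the call of lcum-miR-102223_65-5p in stem missed the threshold (0.0551), as it did without flowers 1 (0.0530).

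Young pods had no member called: 0 higher, against 16.1% of all features, and 0 lower, against 4.64% (edgeR). At an unadjusted p under 0.05 there were 5, and DESeq2 called 0. In flower buds 0 were called higher, against 17.6%, and 2 lower, against 6.19%, namely lcum-miR-70491_122-3p and lcum-miR-63591_144-5p. The second of these, lcum-miR-63591_144-5p, was at 0 in the 3 bud libraries, against 184, 129 and 123 CPM in roots. Its means in mature leaves (42.1 CPM) and flowers (24.4) lay above the mean reading limit in buds (15.7). Those in shoots (5.59), stem (11.6) and young pods (14.9) lay under it, so buds cannot be told apart from these. It was called lower at an adjusted p of 0.0173 (edgeR), which was lost without flower buds 2 (0.0667), flower buds 3 (0.0645) or shoots 3 (0.9998). By tissue mean, 5 of the 13 exact members were highest in young pods and 3 in roots, against 30 of 45 members with a substitution highest in roots. Of these 30, 20 were members confined to roots, on which the choice of members bears. Several of the 5 pod means were close to the mean of another tissue, so the ranks say little about the classes.

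The member that was lower in roots was the exact lcum-miR-24395_580-5p. It was at 0 in the 3 root libraries, against 172, 236 and 187 CPM in stem, 152 and 159.8 in flowers and 213, 141 and 284 in young pods. Shoots had 0, 0 and 57.0 CPM, mature leaves 207, 0 and 0, and flower buds 0, 222 and 354. Roots were thus below every stem, flower and pod library but level with 5 libraries of the remaining tissues. The call (adjusted p = 0.0126, edgeR) was lost without roots 1 (0.0641), roots 2 (0.0574), shoots 3 (0.9998) or mature leaves 1 (0.9998). The exact lcum-miR-118881_50-3p and lcum-miR-143975_36-3p did not pass the filter on low counts. lcum-miR-118881_50-3p had 0, 24.4 and 41.3 CPM in stem and 0, 49.8 and 64.5 in flower buds, and was at 0 elsewhere. lcum-miR-143975_36-3p had 28.3 and 25.7 CPM in flowers, 26.5, 0 and 33.5 in shoots, 0, 94.2 and 0 in mature leaves and 0, 6.79 and 0 in flower buds.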

How the data were processed

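Small RNA from 7 lentil tissues was sequenced in 20 libraries. The authors deposited 1 table of 1642 mature miRNA entries with, per the file headers, raw and normalized columns. The raw values the authors deposited are estimated counts (expected counts), with reads divided among entries of the same sequence. Fractions also occur in some entries whose sequence is not repeated. In the normalized columns the authors deposited a signal, which equals the raw value times a factor per library; the factors served only as an alternative scaling. How reads were trimmed and aligned, the caller and the build: not given in the sources used here. Another 7 lines are not reported here.

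Of entries that repeat a mature sequence the one with the highest total was kept, and counts were rounded to whole numbers, with a fraction of 0.5 rounded up. Features were filtered by tissue with filterByExpr, scaled by TMM and tested with edgeR's quasi-likelihood test (edgeR 4.0.16, limma 3.58.1, R 4.3.3) with tissue as the only term, each tissue set on the log2 scale against the mean of the other 6. Calls required p under 0.05 after Benjamini-Hochberg adjustment across the 323 features, with a log2 fold change of 1 or more in size. DESeq2 1.42.0 was an alternative, and both were run on simulated counts with set changes in roots. The simulation was not built to hold features at 0 outside roots, so it says nothing on members confined to roots. Members at 0 throughout a tissue get levels or a bound in place of a fitted fold change. RNAfold 2.7.2 folded the listed precursors. Python 3.11.15 with pandas 2.3.3 and matplotlib 3.10.9 made the sums and plots.

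Members named are the 10 with the highest mean CPM over tissues, up to 4 called higher and 3 called lower per tissue with the largest fitted change, the 8 most abundant exact members, the 3 with the lowest variation among those above 0 in every library, and groups sharing a run of at least 16 bases, of which there were 2; any other member named, such as lcum-miR-31708_414-5p, was chosen after its values were seen. The members and lists were chosen with earlier results of these data known.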

Additional observations from a re-analysis of the deposited data

How the results depend on the processing

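Of 656 values of the 24 pairs of a named member and a tissue under the other settings and with a library left out, 603 kept their call, 53 kept the direction but lost the call and 0 reversed. The 656 do not cover every pair in every setting, so lost calls may be undercounted. DESeq2 called 14 members over the 7 tissues, against 37 with edgeR, and 20 in roots (17 higher and 3 lower), against 34 (33 and 1). By DESeq2 2 were lower in shoots, against 1 higher with edgeR, 1 was lower in stem, against 3 higher, 3 were higher and 3 lower in mature leaves, against 5 and 1, and 6 were lower in flower buds, against 2. With plain library size 0 were called in shoots, 5 in flowers and 1 in young pods, and with the authors' factors 5 in flowers. Without a filter on low counts there were 11 in mature leaves, 5 in stem, 7 in flowers, 6 in young pods and 5 in flower buds, and with the entries of a sequence summed 2 in young pods. Rounding a fraction of 0.5 to the even number, chosen after seeing the data, gave 0 in shoots and 6 in flowers. Asking for 2 libraries above 0 gave 88 members and asking for 4 gave 35.

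Leaving out 1 library gave 32 to 40 members over the tissues, 28 to 35 in roots, 0 to 1 in shoots, 3 to 7 in mature leaves (3 without mature leaves 1), 0 to 4 in stem (0 without stem 2 and 1 without stem 3), 1 to 7 in flowers (1 without flowers 2 and 7 without stem 2), 0 to 3 in young pods (3 without roots 3 or flower buds 1) and 0 to 6 in flower buds (0 without flower buds 3 and 6 without mature leaves 1). A tissue left with 1 library was assumed to vary like the others.

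Deviations from the tissue means correlated weakly between libraries with the same replicate number (-0.34 to 0.29 over 57 pairs). The median was 0.029, against -0.016 between libraries with different numbers. Of the 20 libraries, 9 correlated best with a library of their own number. These values cannot tell whether the numbers pair the libraries, and the labels do not say. With the replicate block 1 member was called in young pods, against 0 without it. In that fit lcum-miR-24927_565-5p and lcum-miR-24886_566-3p were not called in roots (adjusted p = 0.108 and 0.0841, edgeR) and lcum-miR-102223_65-5p was not called in mature leaves (adjusted p = 0.105, edgeR). The cause of these changes was not tested. Depth limits the members at 0, since 5 reads equal 35.2 CPM in roots on average and 21.7 over the other tissues.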

Other observations

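Several members share shorter runs, searched on the strand listed and chosen after their values were seen. TGTTGCACC lay in 3 of the 58 members, lcum-miR-33005_392-3p, lcum-miR-70491_122-3p and lcum-miR-68259_128-5p, and in 10 of all 1464 features (0.683%). AGATTCGT lay in 3 members, lcum-miR-19071_768-3p, lcum-miR-31708_414-5p and lcum-miR-117353_51-3p, and in 4 of all features (0.273%).

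Some members overlap longer lentil-named features. lcum-miR-143975_36-3p shares 19 bases with the 23 nt lcum-miR-55998_178-3p, which was exact and above 0 in 11 libraries. lcum-miR-70491_122-3p shares 17 bases with the 21 nt lcum-miR-23444_606-3p, which differed from its precursor and was above 0 in 18 libraries. Among features with a known miRNA's name, lcum-miR-136039_40-5p shares 15 bases with bdi-miR5054_1ss11CG. The seed of lcum-miR-131595_42-3p, TTGAACC, is also that of ppe-miR171e_L-2R+2, and the seed of lcum-miR-71135_120-3p, TCTGATT, is also that of mtr-MIR5559-p3_1ss5AG.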
